A study of Mus musculus with 36 samples.

Results

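The nuclear-encoded genes of the respiratory chain and ATP synthase were followed in mouse bone marrow-derived macrophages, which were grown out of marrow over 5 days in M-CSF (macrophage colony-stimulating factor) at 20 ng/mL. The genes were those of protein-coding type whose symbol begins with Nduf, Uqcr, Atp5, Sdha to Sdhd, or Cox4 to Cox8, which gave 98 of the 54232 gene identifiers counted. The set holds 86 subunits and subunit paralogues and 12 assembly factors, since the Ndufaf and Sdhaf symbols share these prefixes. No expression value was used to choose them. The labels name 2 genotypes, WT and NOS1 KO, and 3 treatments, control and 100 ng/mL lipopolysaccharide (LPS, a component of the outer membrane of Gram-negative bacteria) for 2 h or 8 h, with 6 libraries in each of the 6 groups. In replicate 6 of every group the genotype label reads BMDM WT or BMDM NOS1 KO. These libraries were pooled with the others of their genotype and treatment. The sources used here do not say how the NOS1 allele was made, from what strain or age of mouse the marrow came, or whether libraries stand for separate animals. P-values therefore reflect library-to-library spread only, part of which may be technical.

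Complex I takes electrons from NADH through its N module, passes them to ubiquinone in its Q module and pumps protons in its membrane arm. Complex II takes electrons from succinate, complex III hands them to cytochrome c, complex IV passes them to oxygen, and ATP synthase uses the proton gradient to make ATP. Macrophages activated with LPS are known for a shift from respiration to glycolysis and for nitric oxide, which can inhibit complex IV and iron-sulfur enzymes. Nos1 encodes the neuronal nitric oxide synthase.

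Libraries held between 8953489 and 18482551 counts. All 37 genes of the mitochondrial genome, its 13 protein-coding genes among them, were listed at 0 in every library, so the mitochondrially encoded subunits could not be compared with the nuclear ones. Nos1, the gene named in the genotype label, had between 0 and 8 counts in the WT-labelled libraries and between 10 and 83 in the KO-labelled ones, which goes against the label if the transcript was to be lost. The groups are therefore called WT-labelled and KO-labelled. Summed over 9 macrophage markers, every library had at least 12900 CPM (read counts relative to library size). Within every group 3 libraries (set A, replicates 1, 2 and 6) stood apart from the other 3 (set B, replicates 3, 4 and 5) on the first principal component of all other genes, which held 34.6% of the within-group variance. These sets are not in the labels. In 4 WT-labelled LPS libraries 16 skeletal muscle markers summed to over 100 CPM, with 5253 CPM in replicate 5 at 8 h, against at most 80.9 CPM in the other libraries.

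Before LPS the 98 genes together took a median of 0.905% of all counts in the WT-labelled libraries (0.851% to 0.980%) and 0.884% in the KO-labelled ones. At 8 h the medians were 0.628% (0.565% to 0.681%) and 0.597% (0.499% to 0.621%), so that the groups did not overlap within a label. These shares depend on how many counts other genes take. After scaling by the trimmed mean of M-values (TMM), which sets the bulk of the genes level, the summed CPM of complex IV went the other way, from a median of 1379 (1307 to 1517) to 1698 (1638 to 1770) in the WT-labelled libraries. Library totals alone lower the log2 fold change of every gene relative to TMM, with a median over all 12957 tested genes of -0.83 at 8 h in WT-labelled libraries against -0.06 under TMM. Changes below are therefore on the TMM scale, that is, relative to the bulk of the transcriptome, and log2 ratios between members of a complex do not depend on this choice. The 2 h and 8 h comparisons of a label share their control libraries, so their values are given side by side and not as support for each other. In bulk RNA, fewer cells of a kind and less RNA per cell cannot be told apart.

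**Figure D1:**
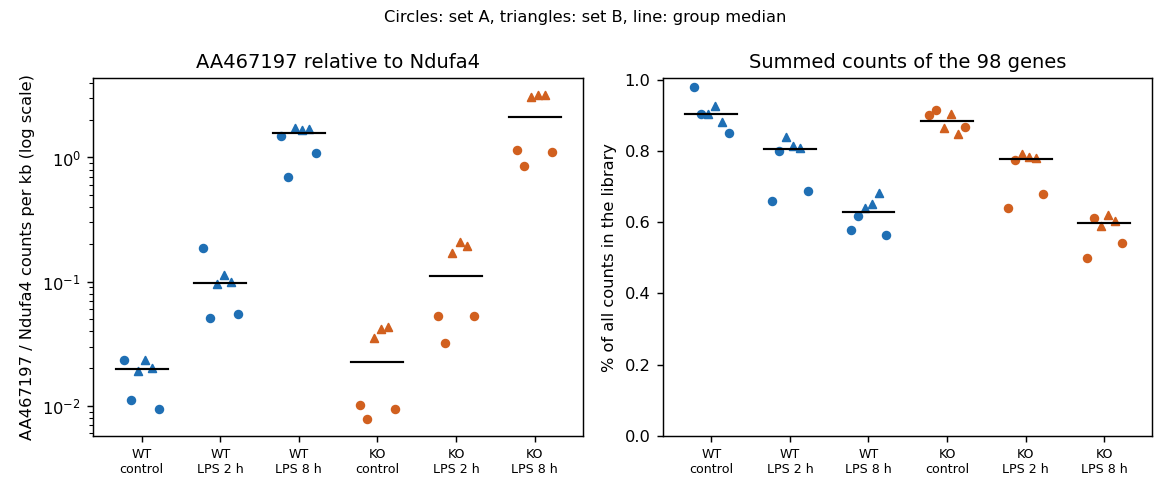
Counts per kilobase of AA467197 relative to Ndufa4 (left, log axis) and the summed counts of the 98 genes as a percentage of all counts in a library (right), each point 1 library, lines at group medians. The ratio lies between 0.00776 and 0.0429 in the control libraries and between 0.696 and 3.21 at LPS 8 h, and the share is lower at 8 h than in control under both labels.

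Levels in unstimulated cells spanned a wide range. Per kilobase of annotated exon, the highest means in WT-labelled controls were those of Cox8a with 234 ± 16.3 CPM per kb (SD, n = 6), Cox6b1 with 221 ± 12.6 and Cox6a1 with 188 ± 14.8, all small subunits of complex IV. The catalytic ATP synthase subunits followed, with 185 ± 9.51 CPM per kb for Atp5a1 (subunit alpha) and 171 ± 16.4 for Atp5b (subunit beta). Cox6a1 and Atp5a1 did not differ beyond their spread. This order depends on the annotated exon length, which is 619 bases for Cox8a, 3135 for Atp5a1 and 4237 for Atp5b. By counts summed over all libraries, Atp5b (364384) and Atp5a1 (301123) lay above Cox8a (70878). Assembly factors, which act on the complexes without staying in them, were far lower, for instance 4.64 CPM per kb for Ndufaf7 and 0.795 for Sdhaf3. The tissue-restricted isoforms Cox4i2, Cox6b2, Cox8b and Ndufa4l2 had 133, 63, 107 and 17 counts over all 36 libraries and, like Cox7b2, Cox8c and a second Atp5o identifier with 0 counts, did not pass the count filter. This left 91 members for the tests. Ndufb2, a subunit of the membrane arm, had only 0.487 CPM per kb. Its annotated exons add up to 5628 bases, which lowers a value per kilobase. Its annotation also shares the plus strand with an overlapping predicted gene, and reads of the pair may have been split.

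At 8 h of LPS the chain did not move as a block. In the WT-labelled libraries 28 of the 91 members rose and 15 fell on the TMM scale by edgeR's quasi-likelihood test with Benjamini-Hochberg adjustment over all genes (adjusted p below 0.05). The called share of the members was 47.3%, against 71.2% of all tested genes, made up of 34.2% higher and 37.0% lower. In the KO-labelled libraries 29 rose and 15 fell, where 72.1% of all tested genes were called, 34.9% higher and 37.2% lower. The median log2 fold change of the members was 0.11 and 0.09 under the WT and KO labels, against -0.06 for all tested genes under both. Changes were small: 5 of the 91 members (5.5%) passed 1 on the log2 scale in either direction under each label, against 39.3% and 40.2% of all tested genes. Under both labels 24 members were called higher and 14 lower, which is 88.4% of the WT-labelled calls and 86.4% of the KO-labelled ones. The same overlap was not worked out over all tested genes, so it is not read as particular to the members. On library totals alone no member was called higher at 8 h, and 85 and 87 members were called lower under the WT and KO labels. On that scaling 85.2% and 85.7% of all tested genes were called in either direction, and 19.9% and 19.5% of those calls were higher. The counts of higher calls also differed between the library sets, with 18 in set A alone and 46 in set B alone for WT-labelled libraries and 16 and 44 for KO-labelled ones. Of all genes tested in set A alone, 67.5% were called in either direction under each label. In set B alone 76% and 77.2% were called under the WT and KO labels.

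**Figure D2:**
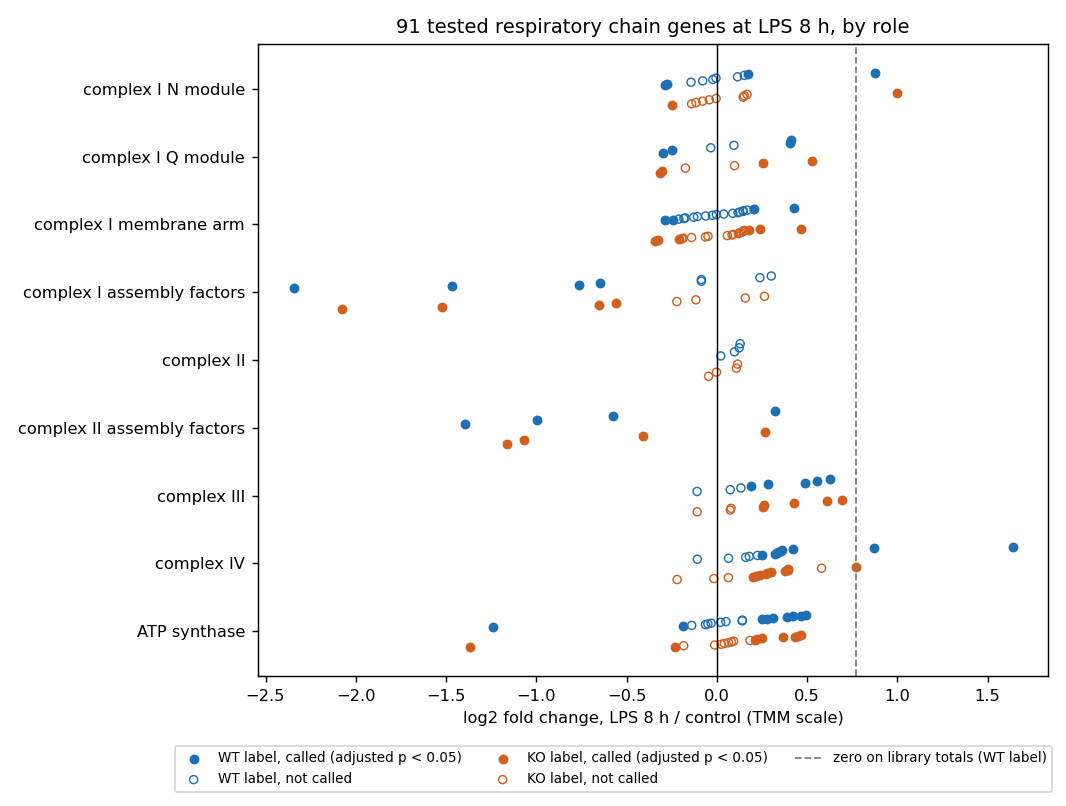
Log2 fold change of each of the 91 tested members at LPS 8 h against control on the TMM scale, by role, with filled points called at an adjusted p below 0.05 and open points not called. The dashed line marks where zero would lie on library totals for the WT label; complexes III and IV have no called member below 0 on the TMM scale, and the assembly factors reach the lowest values.

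The calls were counted by role on the TMM scale. On that scale 34.2% of all tested genes were called higher and 37.0% lower under the WT label. Under the KO label these shares were 34.9% and 37.2%. Of the 8 complex III subunits 5 rose and none fell under each label, and of the 14 tested complex IV members 9 rose under the WT label (the muscle isoform Cox6a2 among them) and 10 under the KO label, with none lower. Among the 17 tested ATP synthase members 7 rose and 2 fell under each label. The 36 structural subunits of complex I were mixed, with 6 higher and 6 lower in each label's libraries, and none of the 4 complex II subunits was called. Of the 12 assembly factors 7 fell and 1 rose under each label. On library totals no group had a member called higher, and the group medians in WT-labelled libraries were -0.45 for complex IV, -0.54 for complex III, -0.63 for ATP synthase, -0.75 for the membrane arm, -1.14 for the complex I assembly factors and -1.55 for those of complex II. On the same scaling the median was -0.83 for all tested genes and -0.66 for all tested members. Only the assembly factors among these groups thus lay below the median of all genes.

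On the TMM scale complex I held both directions within single modules. Ndufs4, an accessory subunit of the N module (chromosome 13, 114287795 to 114388258, minus strand, mm10), was at 34.2, 38.5 and 41.9 CPM (lowest, median, highest) in WT-labelled controls, 25.8, 39.2 and 44.6 at 2 h and 62.1, 68.1 and 78.7 at 8 h. In the KO-labelled libraries it was at 33.6, 38.8 and 39.8 CPM in controls and 56.0, 76.5 and 96.2 at 8 h. Every 8 h library lay above every control library on this scale. Ndufs4 rose by 0.87 on the log2 scale (SE 0.12, edgeR adjusted p = 5.79e-08) and 1.0 (SE 0.12, adjusted p = 3.85e-09) under the WT and KO labels. On library totals these values were 0.11 (adjusted p = 0.439) and 0.18 (adjusted p = 0.193) and no longer called. In KO-labelled libraries the change was 0.68 in set A alone and 1.26 in set B alone.

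The core subunit of the same module, Ndufs1, which carries iron-sulfur clusters, fell. It was at 63.3, 71.8 and 82.4 CPM in WT-labelled controls and at 56.3, 58.8 and 65.9 at 8 h, and fell by 0.28 on the log2 scale (SE 0.07, edgeR adjusted p = 0.000389), and by 0.25 in the KO-labelled libraries (SE 0.07, adjusted p = 0.00116). The log2 ratio of Ndufs4 to Ndufs1 counts, which needs no scaling, lay between -1.15 and -0.60 in WT-labelled controls and between 0.04 and 0.43 at 8 h. In KO-labelled libraries it lay between -0.92 and -0.72 in controls and between -0.22 and 0.83 at 8 h. The groups did not overlap under either label. Ndufs1 overlaps Eef1b2 on the opposite strand, and without a known strand setting the reads of the pair cannot be told apart. The flavoprotein core subunits Ndufv1 and Ndufv2, which take up the electrons of NADH, had values of -0.00 and -0.02 under the WT label (edgeR adjusted p = 0.949 and 0.837).

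The Q module was also split on the TMM scale. Ndufs3, a core subunit, was at 42.2, 47.4 and 54.2 CPM in WT-labelled controls and 51.2, 62.3 and 80.9 at 8 h, so that these groups overlapped slightly. It rose by 0.41 and 0.53 on the log2 scale under the WT and KO labels (SE 0.10 for each, edgeR adjusted p = 0.000369 and 1.01e-05). On library totals it was called lower instead, at -0.37 and -0.30 (edgeR adjusted p = 0.000436 and 0.0037). Ndufs7 and Ndufs8, which hold the last iron-sulfur clusters before the quinone, fell by 0.25 and 0.30 under the WT label and by 0.31 and 0.30 under the KO label. The log2 ratio of Ndufs3 to Ndufs8 went from between -0.17 and 0.46 in WT-labelled controls to between 0.48 and 1.19 at 8 h, and from between -0.05 and 0.43 to between 0.81 and 1.18 in KO-labelled libraries. Ndufs3 overlaps Kbtbd4 on the opposite strand, and without a known strand setting the reads of the pair cannot be told apart. Ndufs8 overlaps no other gene, but its WT-labelled call was lost without control replicate 4 (-0.23, adjusted p = 0.0536). In library set A alone Ndufs1 and Ndufs8 were not called under either label, and Ndufs7 was not called under the KO label; in set B alone Ndufs7 was not called under the WT label.

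In the membrane arm, of 20 subunits 2 rose and 2 fell under the WT label and 3 rose and 3 fell under the KO label. Ndufa1, a small subunit needed for assembly of the complex, was at 33.4, 35.1 and 39.8 CPM in WT-labelled controls and 44.1, 48.1 and 51.4 at 8 h, and rose by 0.43 and 0.46 on the log2 scale (SE 0.07, edgeR adjusted p = 6.35e-07 and 1.18e-07 under the WT and KO labels). Ndufb10 and Ndufb11 fell, by 0.29 and 0.24 under the WT label and by 0.34 and 0.32 under the KO label. The control and 8 h libraries did not overlap for Ndufa1, which is called lower on library totals at -0.35 and -0.36.

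Complex III rose on the TMM scale in 5 of its 8 genes and fell on library totals in 7. Uqcrfs1, the Rieske iron-sulfur protein (chromosome 13, 30540308 to 30545362, minus strand), was at 61.0, 69.7 and 71.5 CPM in WT-labelled controls, 70.1, 77.8 and 81.2 at 2 h and 95.9, 103.5 and 113.3 at 8 h. It rose by 0.62 (SE 0.07) and 0.70 (SE 0.07) on the log2 scale under the WT and KO labels (edgeR adjusted p = 1.72e-09 and 1.5e-10), while on library totals it was at -0.14 and -0.12 and was not called. Uqcrh, the hinge protein at the cytochrome c1 site, rose by 0.56 and 0.61, and Uqcrc2, a core protein, by 0.49 and 0.43. On library totals both of these were called lower. Uqcr11, a small subunit, had -0.11 under both labels and was not called. The span from Uqcr11 to Uqcrfs1 was 0.73 and 0.81 under the WT and KO labels. Cyc1, the cytochrome c1 of this complex whose symbol lies outside the rule, had 0.11 and 0.03 and was not called.

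Cycs, the carrier between complexes III and IV, changed more than any tested subunit of either. This somatic cytochrome c was at 37.4, 62.0 and 74.8 CPM in WT-labelled controls and 201, 217 and 229 at 8 h. It rose by 1.88 (SE 0.25) and 1.98 (SE 0.25) on the log2 scale under the WT and KO labels (edgeR adjusted p = 4.1e-08 and 1.49e-08), and by 1.11 and 1.16 on library totals, where it was still called. The log2 ratio of Cycs to Cyc1 lay between -0.76 and -0.10 in WT-labelled controls and between 1.15 and 1.66 at 8 h.

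In complex IV, Cox5a sits with Cox5b on the matrix side. Cox5a (chromosome 9, 57521274 to 57532426, plus strand) was at 37.2, 46.9 and 49.7 CPM in WT-labelled controls and 72.9, 84.3 and 92.7 at 8 h, and at 35.3, 45.9 and 58.8 against 67.7, 76.1 and 93.6 in KO-labelled libraries. It rose by 0.87 (SE 0.12) and 0.77 (SE 0.12) on the log2 scale (edgeR adjusted p = 9.22e-08 and 8e-07), while on library totals it was at 0.10 and -0.05 and was not called. Cox5b rose by 0.25 and 0.22. The widely expressed subunits Cox4i1, Cox6a1, Cox6b1, Cox6c, Cox7a2 and Cox8a were each called higher under both labels, with log2 fold changes between 0.27 and 0.42, and each was called lower on library totals. Cox7a2l, a paralogue that takes part in respiratory supercomplexes, was not called and lay at -0.11 and -0.22.

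Ndufa4, a subunit of complex IV in spite of its name, stayed near its control level on the TMM scale. It was at 93.4, 101.4 and 108.2 CPM in WT-labelled controls and 91, 106.8 and 119.1 at 8 h, which is 0.07 higher on the log2 scale (SE 0.08, edgeR adjusted p = 0.456). On library totals it was called lower, at -0.71. Its paralogue AA467197 (Nmes1; chromosome 2, 122636986 to 122641191, plus strand), whose protein is known to replace NDUFA4 in complex IV in inflamed cells and whose transcript hosts a microRNA, went from 0.833, 1.69 and 2.22 CPM in WT-labelled controls to 4.56, 9.0 and 12.7 at 2 h and 72.2, 133.1 and 156.6 at 8 h. In the KO-labelled libraries it went from 0.657, 1.85 and 3.64 CPM to 2.99, 9.09 and 17.7 and then to 80.9, 170.9 and 281.4. No control library overlapped an 8 h library.

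AA467197 rose by 2.43 (SE 0.48) at 2 h and 6.31 (SE 0.50) at 8 h on the log2 scale in WT-labelled libraries (edgeR adjusted p = 9.31e-05 and 2.37e-13), and by 2.28 and 6.42 in KO-labelled ones. These calls held on library totals, with 5.55 and 5.61 at 8 h. Per kilobase, AA467197 stood at a median of 0.0197 of Ndufa4 in WT-labelled controls, 0.0982 at 2 h and 1.58 at 8 h, and at 0.0226, 0.111 and 2.12 under the KO label. At 8 h the ratio was above 1 in 5 of the 6 libraries of each label. In KO-labelled libraries it split by library set, with 0.851 to 1.15 in set A and 3.08 to 3.21 in set B at 8 h. The cause of this split was not tested.

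In ATP synthase the catalytic subunits rose on the TMM scale and fell on library totals, while other genes of the enzyme went down on both. Atp5a1 was at 543, 577 and 615 CPM in WT-labelled controls, 572, 690 and 736 at 2 h and 741, 825 and 853 at 8 h, and rose by 0.49 and 0.46 on the log2 scale under the WT and KO labels at 8 h (SE 0.06, edgeR adjusted p = 2.75e-08 and 8.54e-08). Atp5b rose by 0.46 and 0.43 (SE 0.13, adjusted p = 0.0026 and 0.00453). On library totals Atp5a1 was called lower at 8 h under both labels, and Atp5b under the KO label only. There are 3 genes for the same c subunit of the rotor ring, whose mature proteins are identical. On the TMM scale Atp5g3 rose by 0.31 under the WT label and stood at 0.18 under the KO label (edgeR adjusted p = 0.0578). Atp5g2 fell by 0.18 and 0.23, and Atp5g1, at the nearby values of -0.14 and -0.18, was not called. On library totals Atp5g3 was called lower under both labels, at -0.46 and -0.64. The WT-labelled call of Atp5g2 was lost without control replicates 4 or 5 or LPS 8 h replicates 5 or 6, each left out alone, with values from -0.17 to -0.15 (adjusted p up to 0.0857).

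Atp5s, also known as coupling factor B, was the only ATP synthase member past 1 on the log2 scale. It was at 4.16, 5.03 and 7.15 CPM in WT-labelled controls and 1.05, 2.44 and 3.31 at 8 h. It fell by 1.24 (SE 0.20) and 1.36 (SE 0.20) under the WT and KO labels (edgeR adjusted p = 1.3e-06 and 2.62e-07), and it fell further on library totals.

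The subunits of complex II, which also belongs to the citric acid cycle, were level on the TMM scale. Sdha, the flavoprotein, was at 215, 222 and 238 CPM in WT-labelled controls and 214, 225 and 244 at 8 h, groups that overlapped almost wholly. The log2 fold changes of Sdha, Sdhb, Sdhc and Sdhd at 8 h were 0.02, 0.10, 0.13 and 0.12 under the WT label and -0.05, -0.00, 0.12 and 0.11 under the KO label, with SE of 0.05 to 0.07. None was called, and a missed threshold does not show that they were unchanged. On library totals all 4 subunits were called lower under both labels, with values between -0.87 and -0.64.

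**Figure D3:**
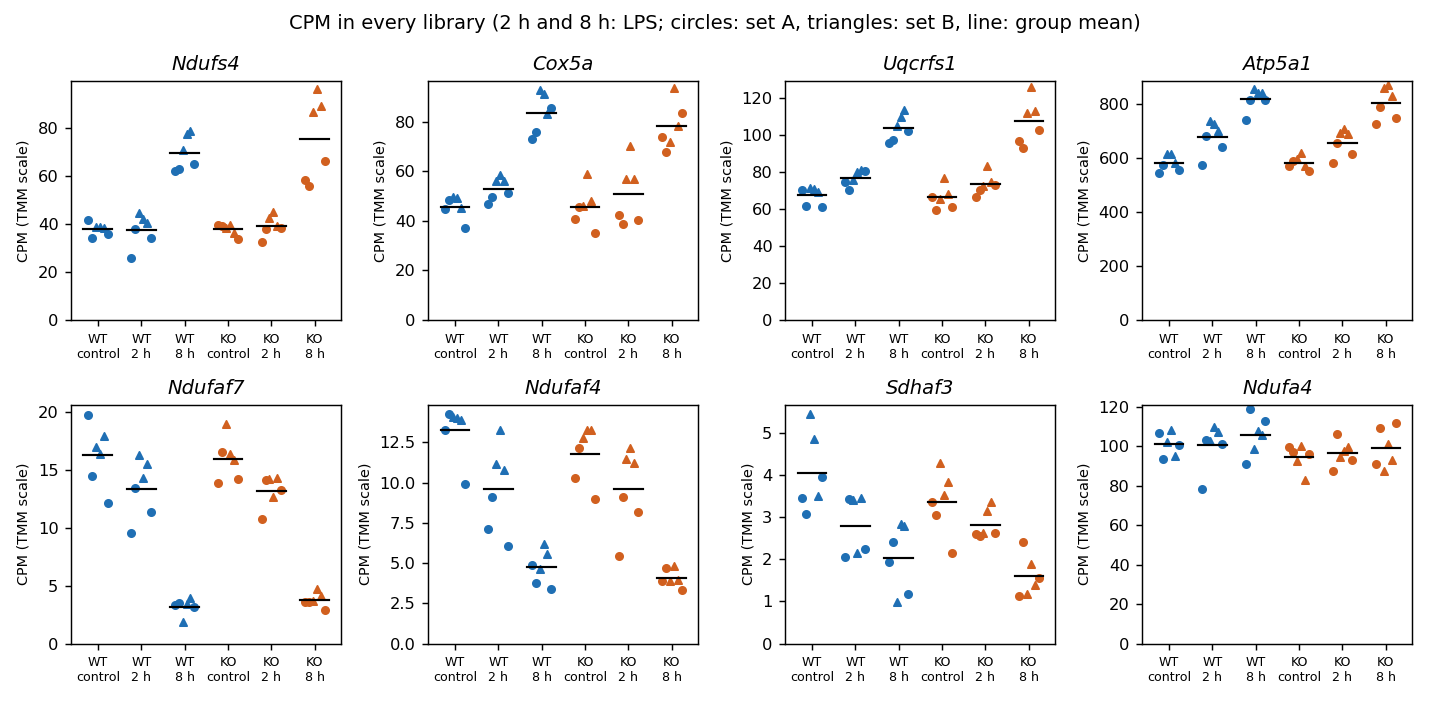
CPM on the TMM scale in every library for 8 members, with circles for set A, triangles for set B and lines at group means; the axes start at 0. On this scale Ndufs4, Cox5a, Uqcrfs1 and Atp5a1 lie above their control libraries at LPS 8 h, while on library totals the first 2 are not called, Uqcrfs1 is not called and Atp5a1 is called lower; Ndufaf7 and Ndufaf4 lie below under either scaling, Sdhaf3 is lower with an overlap under the KO label, and Ndufa4 shows overlapping groups.

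The assembly factors held the members that fell most, and these falls do not turn with the scaling. Ndufaf7, a methyltransferase that acts early in assembly (chromosome 17, 78937136 to 78948052, plus strand), was at 12.2, 16.7 and 19.7 CPM in WT-labelled controls, 9.54, 13.8 and 16.3 at 2 h and 1.87, 3.36 and 3.96 at 8 h. In KO-labelled libraries it was at 13.9, 16.1 and 18.9 CPM in controls and 2.88, 3.64 and 4.73 at 8 h. Controls and 8 h libraries were far apart under both labels. Ndufaf7 fell by 2.34 (SE 0.15) and 2.08 (SE 0.15) on the log2 scale (edgeR adjusted p = 1.08e-15 and 1.42e-14), and under the WT label the value lay between -2.45 and -2.21 over the settings other than library totals and the removal of single libraries. Stretches of its transcripts match those of 8 other genes at 95% identity or more over at least 150 bases, and how such reads were counted is not given.

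Ndufaf4, which acts on early parts of complex I (chromosome 4, 24898083 to 24905001, plus strand), was at 9.93, 14 and 14.3 CPM in WT-labelled controls, 6.07, 9.95 and 13.3 at 2 h and 3.43, 4.77 and 6.22 at 8 h. It fell by 1.47 and 1.52 on the log2 scale under the WT and KO labels (SE 0.18, edgeR adjusted p = 8.83e-09 and 4.73e-09). Ndufaf2 fell by 0.76 and 0.65 and Ndufaf6 by 0.65 and 0.56. Ndufaf1, Ndufaf3, Ndufaf5 and Ndufaf8 were not called.

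Of the 4 complex II assembly factors 3 fell and 1 rose. Sdhaf1 and Sdhaf3, which guard the iron-sulfur subunit, have few counts, with a mean of 0.81 and 1.58 on the log2 CPM scale, and are named only as members of this small group. Sdhaf1 fell by 1.39 (SE 0.32) and 1.16 (SE 0.32) and Sdhaf3 by 1.0 (SE 0.22) and 1.07 (SE 0.23) on the log2 scale under the WT and KO labels (edgeR adjusted p between 9.93e-05 and 0.00145), at group medians of 0.665 to 3.73 CPM. Sdhaf4 fell by 0.57 and 0.41. Sdhaf2, which helps attach the flavin to Sdha, was at 39.2, 44.3 and 46.6 CPM in WT-labelled controls and 51.4, 54.4 and 56.2 at 8 h and rose by 0.33 and 0.27 (SE 0.07). On library totals it was called lower, at -0.45 and -0.55, and in set A alone it was not called under either label. Sdhaf2 overlaps Cpsf7 on the opposite strand.

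The assembly factors are also expressed at a lower level than the subunits, with a median of 3.01 on the log2 CPM scale against 5.91. Their median log2 fold change at 8 h was -0.61 and -0.48 under the WT and KO labels, against 0.13 and 0.12 for the subunits and -0.06 for all tested genes. The share of assembly factors called in either direction in the WT-labelled libraries was 66.7%, beside the 71.2% of all genes. Called lower were 7 of the 12 assembly factors, beside 37.0% of all genes. Within library set A alone 7 and 6 of the 12 fell and none rose under the WT and KO labels, and within set B alone 7 and 6 fell and 2 and 3 rose. Of all genes tested in set A, 67.5% were called in either direction under each label. In set B 76% and 77.2% were called under the WT and KO labels.

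RefSeq promoter windows (build GRCm38.p6, the 250 bases before an annotated start) were found for 78 of the 97 member symbols, and the letters of 4 motifs named in the literature on these genes were searched on both strands in all windows of a gene. The ETS letters CCGGAAG, bound by GABPA, were in 20.5% of members against 7.8% of all 27025 genes with a window and 15.9% of the genes tested here. The NRF1 letters GCATGCGC were in 11.5% of members, 2.6% of all genes and 5.1% of the tested ones. YY1 letters AAGATGG were in 1.3% of members and 5.2% of all genes, and AAGGTCA, read by oestrogen-related receptors, in 6.4% and 4.7%. Among members called at 8 h under both labels, ETS letters stood before 6 of the 17 higher genes with a window and 1 of the 11 lower ones, and NRF1 letters before 2 and 2. Of the 39 members with a window that were called under neither label, 8 had the ETS letters and 4 the NRF1 letters. A match is a description of the letters in the window and not a bound site. The 4 windows below show that the ETS and the NRF1 letters each lay before a gene that rose and a gene that fell on the TMM scale (Uqcrh is lower on library totals), with the matched letters in capitals: on chromosome 4 for Ndufaf4 (chr4:24897833-24898082, plus strand), where NRF1 letters on both strands overlap and which fell, and Uqcrh (chr4:116075071-116075320, minus strand), with ETS letters read from the opposite strand, which rose; on chromosome 6 for Sdhaf3 (chr6:6955768-6956017, plus strand), with ETS letters, which fell, and Cycs (chr6:50566570-50566819, minus strand), with NRF1 letters, which rose.
Ndufaf4: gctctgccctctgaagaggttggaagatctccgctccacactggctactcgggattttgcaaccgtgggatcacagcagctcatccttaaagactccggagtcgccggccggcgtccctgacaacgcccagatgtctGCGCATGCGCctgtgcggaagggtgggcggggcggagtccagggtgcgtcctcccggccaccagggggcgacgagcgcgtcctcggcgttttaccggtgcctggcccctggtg
Uqcrh: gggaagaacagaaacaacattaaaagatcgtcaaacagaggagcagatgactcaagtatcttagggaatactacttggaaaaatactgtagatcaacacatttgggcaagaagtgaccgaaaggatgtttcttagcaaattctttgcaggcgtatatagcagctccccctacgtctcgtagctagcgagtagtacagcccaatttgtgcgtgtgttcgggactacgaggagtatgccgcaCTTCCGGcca
Sdhaf3: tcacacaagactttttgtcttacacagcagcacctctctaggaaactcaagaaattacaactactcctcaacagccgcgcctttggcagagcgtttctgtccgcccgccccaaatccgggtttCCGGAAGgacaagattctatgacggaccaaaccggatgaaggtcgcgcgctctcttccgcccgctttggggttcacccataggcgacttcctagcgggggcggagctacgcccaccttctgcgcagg
Cycs: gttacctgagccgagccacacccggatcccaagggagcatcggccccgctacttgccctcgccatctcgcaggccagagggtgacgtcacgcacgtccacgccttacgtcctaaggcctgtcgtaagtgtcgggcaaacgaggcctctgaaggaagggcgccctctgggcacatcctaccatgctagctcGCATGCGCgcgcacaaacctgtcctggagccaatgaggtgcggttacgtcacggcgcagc
The match of Ndufaf4 begins 113 bases before the start, that of Uqcrh 10, that of Sdhaf3 127 and that of Cycs 60.

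The calls at 2 h depended on the scaling. In the WT-labelled libraries 5 members rose and 3 fell on the TMM scale by edgeR's test, where 37.9% of all tested genes were called, 20.3% higher and 17.7% lower. Atp5a1 (0.22, adjusted p = 0.00636), Ndufa1 (0.20), Uqcrfs1 (0.19), Uqcrh (0.19) and Cox6c (0.17) rose on the log2 scale, and Sdhaf3 (-0.53), Atp5s (-0.52) and Ndufaf4 (-0.46) fell. On library totals the 5 higher members lay between -0.14 and -0.08 and were not called. On that scaling no member was called higher and 71 were called lower. Of all tested genes 58.8% were then called in either direction, and 20.7% of those calls were higher. In the KO-labelled libraries Atp5a1 rose by 0.17 (adjusted p = 0.0329) and Sdhaf2 fell by 0.26 (adjusted p = 0.00253), and no other member was called, where 35.3% of all tested genes were called, 18.9% higher and 16.4% lower. On library totals 0 members were called higher and 67 lower in the KO-labelled libraries. There 56.2% of all tested genes were called in either direction, and 20.3% of those calls were higher. Set A alone gave 0 higher calls and set B alone 18 in WT-labelled libraries, and 0 and 14 in KO-labelled ones. Of all genes tested in these sets, 38.4% and 50.8% were called in either direction under the WT label. Under the KO label these shares were 32.9% and 48%. Without the 4 libraries rich in muscle markers 3 members rose and 1 fell under the WT label. Single libraries decided most of these calls. Leaving out LPS 2 h replicate 3 took Ndufa1 to 0.16 (adjusted p = 0.0531), and 5 libraries for Uqcrfs1 and Atp5s, 6 for Uqcrh, 7 for Ndufaf4 and 10 for Cox6c each ended the WT-labelled call when left out alone. The KO-labelled call of Atp5a1 was lost without any 1 of 6 libraries, with values from 0.15 to 0.17. The calls of Atp5a1 under the WT label and of Sdhaf2 under the KO label held in each of these 36 fits.

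From 2 h to 8 h, 25 members rose and 10 fell in WT-labelled libraries by edgeR's test, where 62.8% of all tested genes were called, 30.0% higher and 32.8% lower. In KO-labelled libraries 23 rose and 11 fell, where 65.2% were called, 31.5% higher and 33.7% lower. Ndufs4 rose by 0.89 and 0.94 and Ndufaf7 fell by 2.07 and 1.80 on the log2 scale over these hours under the WT and KO labels. Most of the change of both genes at 8 h thus fell after 2 h. On library totals Ndufs4 was not higher at 8 h than in controls by the test. Sdhaf2 rose by 0.45 and 0.52 after its lower value at 2 h. On library totals 1 member was called higher and 76 lower over these hours under each label. On that scaling 73.6% and 76.6% of all tested genes were called in either direction under the WT and KO labels. Of those calls 22.3% and 21.9% were higher.

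Between the genotype labels no member was called at any time by edgeR, and DESeq2 and limma-voom called 0 as well. In controls 19 of 12957 genes were called by edgeR (0.147%), at 2 h 3 (0.0232%) and at 8 h 13 (0.1%), and none of them was a respiratory chain member. At an unadjusted p below 0.05 there were 1, 0 and 3 members (1.10%, 0.0% and 3.30%), against 2.97%, 3.11% and 9.29% of all tested genes. The median absolute log2 difference over the members was 0.04, 0.05 and 0.06. Of the 91 values 67, 68 and 65 were below 0, where 51.2%, 52.7% and 46.0% of all tested genes were. The medians were -0.03, -0.04 and -0.04 against -0.00, -0.01 and 0.02 for all tested genes. The 95% interval of the difference lay within 0.5 of 0 on the log2 scale for 85, 85 and 81 members, so larger differences are outside the intervals of these members. Uqcrq had the smallest p in controls at -0.19 (SE 0.08, adjusted p = 1.0), Ndufb10 at 2 h at -0.13 (SE 0.07, adjusted p = 1.0) and Cox6a2 at 8 h at -1.38 (SE 0.50, adjusted p = 0.297). The difference between the LPS responses of the labels was called for 0.0% of all tested genes and for no member, with 0 members below an unadjusted p of 0.05 at 2 h and at 8 h.

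Within library set B alone members were called between the labels, 2 in controls, 2 at 2 h and 7 at 8 h, where 10.5%, 10.5% and 31.5% of all genes tested in that set were called, while set A alone gave 0 at each. In set B at 8 h Ndufs4 was 0.26 higher in KO-labelled libraries (adjusted p = 0.00179) and -0.08 in set A (adjusted p = 1.0). Atp5g3 was at -0.23 (adjusted p = 0.000898) in set B and -0.15 (adjusted p = 1.0) in set A, and Uqcrc1 at -0.20 (adjusted p = 0.00198) and -0.06 (adjusted p = 1.0). With library set as a term in edgeR no member was called between the labels. P-values within a set rest on the spread of its libraries, and whether these are separate animals is not known. Libraries with closer counts have a lower chi-square per gene. At 8 h it was 2.184 to 3.331 in set B and 4.412 to 19.636 in set A for KO-labelled pairs. For WT-labelled pairs it was 2.533 to 11.724 and 7.832 to 16.145. The spread behind the set B calls may be partly technical.

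**Figure D4:**
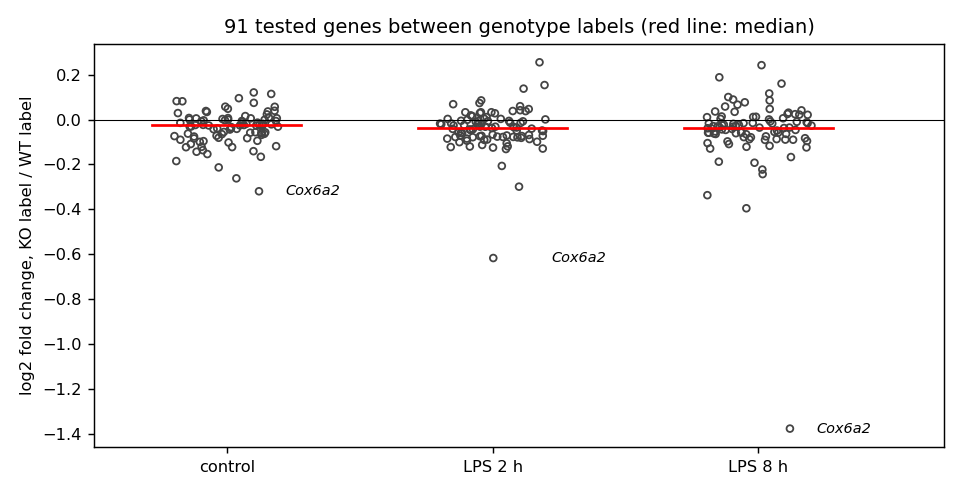
Log2 fold change of the KO label over the WT label for the 91 tested members in control, LPS 2 h and LPS 8 h, each open point 1 gene and the red line the median; none is called. The member farthest from 0 at each time is Cox6a2, at -1.38 at 8 h.

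Cox6a2, the muscle isoform of a complex IV subunit, rests on single libraries. It was at 0.899, 1.52 and 2.18 CPM in WT-labelled controls and at 1.21, 1.72 and 18.1 at 8 h, where the highest value is that of replicate 5 with its 5253 CPM of muscle markers. Its log2 fold change at 8 h under the WT label was 1.64 (SE 0.49, edgeR adjusted p = 0.00348), 0.37 without that replicate (adjusted p = 0.372) and 0.02 without the 4 muscle-rich libraries (adjusted p = 0.962). Under the KO label it was 0.58 (adjusted p = 0.32). The muscle isoforms Cox7a1 and Cox8b were also highest in that library, at 8.13 and 8.55 CPM, against at most 3.52 and 0.749 CPM in any other library. The ubiquitous Cox6a1 was at 119.7 to 144.6 CPM in WT-labelled controls and 144.0 to 174.9 at 8 h.

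Some genes outside the rule that build or serve the chain changed more than most subunits at 8 h. The lists as a whole did so less: on the TMM scale the WT-labelled median was 0.05 for assembly factors of complexes III, IV and ATP synthase. It was -0.16 for regulators and -0.82 for further complex I assembly factors, beside -0.06 for all tested genes. At 8 h on the TMM scale 34.2% of all tested genes were called higher and 37.0% lower under the WT label. Under the KO label 34.9% and 37.2% were. On library totals 85.2% and 85.7% were called in either direction under the WT and KO labels. Of those calls 19.9% and 19.5% were higher. Of 7 tested further complex I assembly factors 4 fell at 8 h under each label, among them Tmem126b at -1.12 and -1.10 and Tmem186 at -1.12 and -1.24, while Foxred1 rose by 0.84 under both labels on the TMM scale and was not called on library totals (0.06 and 0.01). Of 24 tested assembly factors of complexes III, IV and ATP synthase 6 rose and 8 fell under the WT label and 5 and 8 under the KO label on the TMM scale, and on library totals 4 rose and 18 fell under the WT label and 4 and 17 under the KO label. Sco1, a copper chaperone of complex IV, rose by 2.92 and 3.5 and Coa5, an assembly factor of the same complex, by 2.30 and 2.22, both also called higher on library totals, while Lrpprc, which stabilises mitochondrial mRNAs, was at -1.01 and -1.02. Among 18 tested regulators 5 rose and 6 fell under the WT label and 4 and 8 under the KO label on the TMM scale, where 71.2% and 72.1% of all tested genes were called, and on library totals 1 rose and 14 fell under each label. Esrra, an oestrogen-related receptor, rose by 1.25 and 1.08 and was still called higher on library totals at 0.47 and 0.25. Ppargc1b, a coactivator, rose by 1.04 under both labels and was not called on library totals, Nrf1 and Gabpa were not called on the TMM scale and were called lower on library totals, and Twnk, the mitochondrial DNA helicase, fell by 1.79 and 2.38. Of 77 tested mitochondrial ribosomal protein genes 11 rose and 36 fell under the WT label and 12 and 34 under the KO label, with a median of -0.20 for both; on library totals 2 rose and 73 fell under each label. Of 22 tested mitochondrial import genes 5 rose and 10 fell under the WT label and 5 and 9 under the KO label on the TMM scale. Their medians were -0.11 and -0.06, and on library totals 0 rose and 19 and 20 fell. These lists were written with earlier results of the same libraries known.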

How the data were processed

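RNA was sequenced in 36 libraries of mouse macrophages. Per the submitters' processing notes reads were counted with HTSeq on mm10, and each deposited file lists unnormalized counts by Ensembl gene. Which aligner, gene annotation, HTSeq release and strandedness were used is not given in the sources used here. Groups were taken from the genotype and treatment labels. Replicate numbers follow accession order, and the labels do not say whether they pair libraries. Sets A and B held the same replicate numbers in every group, and the main fit had no term for them. No 2 libraries of a group agreed within sampling noise (chi-square per gene at least 2.154).

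Counts were tested with edgeR 4.0.16 (R 4.3.3) by the quasi-likelihood F test, with TMM scaling, filterByExpr on the 6 groups (12957 genes), 1 mean per group over all 36 libraries and Benjamini-Hochberg adjustment over all genes at 0.05. Fold changes are log2 with SE from the F statistic, and CPM values use TMM-scaled library sizes. Per-kilobase values use the union of GENCODE M21 exons. The fit was tested on simulated data.

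Alternatives were DESeq2 1.42.0 size factors and test, limma-voom (limma 3.58.1), library totals alone, other count filters, only the groups compared, library set as a term or alone, surrogate variables (sva 3.50.0), and leaving out libraries. Genes named were the 6 largest called changes per direction and LPS comparison with mean log2 CPM of 2 or more, all calls where 5 or fewer, the 3 smallest p-values per genotype comparison without calls, and a fixed list of core subunits and isoforms. Not every gene that this rule covers is reported here. Others named in the text illustrate a role and were chosen after their values were seen. The members, roles, lists and alternatives were chosen with earlier results of these data known.

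Totals of 8953489 to 18482551 counts leave genes under about 1 CPM with few counts and wide errors.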

Additional observations from a re-analysis of the deposited data

Results flagged for a closer look

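For 22 of the genes named, each group of 6 libraries was searched for a highest or lowest library standing apart from the rest by more than 0.625 of the group's range (Dixon's value at 95%). Of 132 groups 10 had such a library, where chance gives about 1 in 20.

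Cox6a2 stood apart in the WT-labelled libraries, at 18.07 CPM in LPS 8 h replicate 5 (group median 1.72) and 5.243 CPM in LPS 2 h replicate 6 (median 1.72), which are also the libraries with 5253 and 635 CPM of muscle markers. Replicate 4 of KO-labelled LPS 8 h was highest for 3 genes, with 66.47 CPM for Sdhaf2 (median 55.3), 7.006 for Sdhaf4 (median 4.79) and 3.219 for Atp5s (median 1.76). Atp5s was also high in KO-labelled control replicate 1, at 6.21 CPM (median 4.92), and Ndufa1 in WT-labelled LPS 2 h replicate 3, at 45.86 CPM (median 39.9). Low values were 9.931 CPM for Ndufaf4 in WT-labelled control replicate 6 (median 14), 78.5 CPM for Ndufa4 in WT-labelled LPS 2 h replicate 1 (median 103.2) and 740.7 CPM for Atp5a1 in WT-labelled LPS 8 h replicate 1 (median 824.8).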

How the results depend on the processing

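No analysis paired by replicate number was made, because the labels name no animal, culture or batch. The library sets, which held the same replicate numbers in every group, entered only among the alternatives, as a term or alone. Among 49 alternatives (13 settings and 36 fits without 1 library), Ndufaf7, Ndufaf4, Ndufaf2, Atp5s, AA467197 and Cycs kept direction and call at 8 h under both labels. Ndufs4 did so in 48, losing its call on library totals. Library totals alone put every gene lower relative to TMM: the share of higher calls among all genes' calls at 8 h went from 48.0% to 19.9% (WT label) and from 48.5% to 19.5% (KO label), at 2 h from 53.4% to 20.7% and from 53.5% to 20.3%, and from 2 h to 8 h from 47.8% to 22.3% and from 48.3% to 21.9%.

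Members called higher and lower on library totals were 0 and 71 (WT 2 h), 0 and 67 (KO 2 h), 0 and 85 (WT 8 h), 0 and 87 (KO 8 h), and 1 and 76 from 2 h to 8 h for each label. In the same order 58.8%, 56.2%, 85.2%, 85.7%, 73.6% (WT) and 76.6% (KO) of all tested genes were called in either direction. The log2 fold changes that turned negative on library totals, WT before KO label at 8 h, were Atp5a1 -0.28 and -0.36, Atp5b -0.30 and -0.38, Atp5g3 -0.46 and -0.64, Cox4i1 -0.45 and -0.55, Cox6a1 -0.45 and -0.55, Cox6b1 -0.41 and -0.52, Cox6c -0.35 and -0.43, Cox7a2 -0.43 and -0.44, Cox8a -0.41 and -0.43, Cyc1 -0.65 and -0.78, Ndufa1 -0.35 and -0.36, Ndufa4 -0.71 and -0.76, Ndufs3 -0.37 and -0.30, Sdhaf2 -0.45 and -0.55, Sdhc -0.64 and -0.71, Sdhd -0.65 and -0.71, Uqcrc2 -0.28 and -0.39, Uqcrfs1 -0.14 and -0.12, and Uqcrh -0.22 and -0.21. The same held for Sdha -0.75 and Sdhb -0.68 under the WT label and Cox5a -0.0498 under the KO label. At 2 h these were Atp5a1 -0.084 (WT) and -0.12 (KO), Cox6c -0.14, Ndufa1 -0.11, Uqcrfs1 -0.11 and Uqcrh -0.12.

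Of the 5 higher calls at WT 2 h the number was 3 with no count filter, 8 by DESeq2, 1 with only the groups compared, 8 with library set as a term, 17 with surrogate variables, 0 and 18 in sets A and B, 2 without the 6 libraries labelled BMDM and 3 without the muscle-rich ones; of the 3 lower calls it was 0 with no filter and 1 without the muscle-rich libraries. For KO 2 h, with 1 call each way, higher calls were 0 with no filter, with only the groups compared and without the BMDM-labelled libraries, 3 with set as a term, 7 with surrogate variables and 0 and 14 in sets A and B; lower calls were 2 with DESeq2 size factors and by its test, 4 with only the groups compared, 3 with set as a term, 4 with surrogate variables and 2 in set B. At 8 h the 28 and 29 higher calls were 43 and 46 with surrogate variables, 18 and 16 with set A only, 46 and 44 with set B only, and 19 for the KO label with no filter. From 2 h to 8 h the higher calls (25 and 23) were 12 and 15 with no filter and 36 for the KO label with surrogate variables, and the lower calls (10 and 11) were 6 and 4 in set A and 18 for the KO label in set B. Set B alone called 2, 2 and 7 members between the labels in control, at 2 h and at 8 h, and 3 for the difference in the 8 h response, where 10.5%, 10.5%, 31.5% and 16.6% of all genes were called. For LPS against control, set A alone called 38.4% and 32.9% of all genes at 2 h (WT before KO label) and 67.5% under each label at 8 h. Set B alone called 50.8% and 48% at 2 h and 76% and 77.2% at 8 h. The causes were not tested.

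Without 1 library at a time, higher calls ranged from 2 to 7 and lower from 0 to 3 at WT 2 h, 0 to 3 and 1 to 2 at KO 2 h, 26 to 32 and 13 to 15 at WT 8 h, 26 to 34 and 14 to 16 at KO 8 h, 18 to 27 and 8 to 13 (WT) and 18 to 27 and 9 to 14 (KO) from 2 h to 8 h, and stayed 0 between the labels.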
